A study of Mus musculus with 10 samples.

Results

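Short interspersed nuclear elements (SINEs) accounted for 16360 of the 2577272 Nanopore reads in the 10 libraries, or 0.635%. They were taken as every alignment whose annotated repeat class was SINE, which gave 18713 alignments to 9908 genomic copies of 33 named elements, out of 51315 reference sequences hit in the whole table. The copies fell into 6 families, B2 (6295 copies), Alu, the name given in the annotation to mouse B1 (1936), B4 (1230), MIR (305), ID (140) and Deu (2). Most copies were seen rarely, since 7082 of the 9908 had 1 read and 196 had 10 reads or more. A further 2 alignments carried the uncertain class SINE? and were left out. Of the 16360 SINE reads, 12961 had no alignment to an annotated mRNA and are called SINE-only reads here. The name does not mean that a host RNA is absent.

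The libraries came from undifferentiated P19 cells, a mouse embryonal carcinoma line labelled wild type, transfected with a small interfering RNA against Larp1 (siLarp1) or with a pool of scrambled siRNAs (siCtl). Cells were collected after 24 h (3 libraries per treatment) or after 48 h with a second transfection at 24 h (2 libraries per treatment). Poly(A) RNA was selected on oligo(dT) beads and reverse transcribed into RNA-cDNA hybrids, of which the RNA strand was sequenced directly. The study asked how LARP1, a protein that binds mRNAs of the translation machinery, acts on poly(A) tails. Here the same reads were used to ask how many SINE RNAs were caught, where their alignments began and how long their tails were. It was also asked whether these differed after Larp1 knockdown.

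SINEs are short retroposons that carry no protein of their own and are copied by the enzymes of LINE elements. B1 descends from 7SL RNA, the RNA of the signal recognition particle, and B2 and ID from tRNAs, and young copies can be transcribed by RNA polymerase III from 2 promoter blocks inside the element, the A box and the B box. B2 RNAs are known to be able to gain a poly(A) tail directed by an AATAAA signal at their 3′ end, while SINEs that lie inside genes are also carried along in longer RNA polymerase II transcripts. A read with a SINE can therefore come from the element itself or from a host RNA.

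The B2 reads that dominate these data are easiest to follow on the sequence. For each of the 3 most-read B2 elements, the most-read copy is shown among those that lie wholly in an annotated exon without coding overlap, have both boxes on a single strand and have their median alignment start 6 to 30 nt inside the element, read from the GENCODE transcripts on GRCm38 (mm10) in the direction of the element. Capitals mark the A box (searched as TGGCNNAG) and the B box (searched as GTTCNANNC).
B2_Mm1a, chr7:34164126-34164320, plus strand: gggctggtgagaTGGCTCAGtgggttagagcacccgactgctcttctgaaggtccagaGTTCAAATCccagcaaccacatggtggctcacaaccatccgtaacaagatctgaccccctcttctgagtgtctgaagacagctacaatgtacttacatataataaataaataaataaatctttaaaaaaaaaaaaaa
B2_Mm1t, chr2:39010084-39010272, minus strand: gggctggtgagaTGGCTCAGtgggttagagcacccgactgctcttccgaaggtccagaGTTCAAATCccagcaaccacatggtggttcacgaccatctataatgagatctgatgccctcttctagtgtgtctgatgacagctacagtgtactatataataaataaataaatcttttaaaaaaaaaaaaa
B2_Mm2, chr7:25818372-25818548, minus strand: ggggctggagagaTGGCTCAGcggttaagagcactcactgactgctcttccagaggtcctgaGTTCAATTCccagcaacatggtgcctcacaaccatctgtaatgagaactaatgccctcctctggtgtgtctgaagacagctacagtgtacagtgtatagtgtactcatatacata
The first copy lies on the opposite strand of a Uba2 transcript with a retained intron, the next opposite an Arpc5l processed transcript, and the last opposite the long noncoding RNA Gm26707. Their A boxes begin at base 13, 13 and 14 and their B boxes at base 59, 59 and 63. Alignments to them began at a median of 12, 16 and 14 bases into the element and ended at base 186, 180 and 177. The aligned part thus ran from about the A box to near the 3′ end of the element. Whether the RNAs themselves began further upstream was not tested. The number of reads was 5, 5 and 19. The median mapping quality was 0 for the first and second copy and 10 for the last, so which copy the reads of the first and second came from was not settled by the alignment. The B2_Mm1a copy holds 4 AATAAA signals and ends in a run of 14 A, the B2_Mm1t copy holds 3 and ends in 13 A, and the B2_Mm2 copy holds none.

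A further 3 copies, all in exons of noncoding RNAs, show the other kind of read, in which the alignment begins at the first bases of the element. They are the most-read copies of the Alu, B4 and MIR families in such exons, and are printed in the direction of the host transcript, without marked bases.
B1F in Snhg12, chr4:132310906-132310974, plus strand: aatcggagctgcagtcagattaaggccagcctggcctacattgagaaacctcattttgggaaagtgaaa
B4A in AC174471.1, chr17:30923592-30923725, minus strand: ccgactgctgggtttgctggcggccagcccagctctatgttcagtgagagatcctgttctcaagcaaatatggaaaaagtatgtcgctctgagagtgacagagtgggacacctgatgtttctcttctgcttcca
MIR in Meg3, chr12:109571601-109571709, plus strand: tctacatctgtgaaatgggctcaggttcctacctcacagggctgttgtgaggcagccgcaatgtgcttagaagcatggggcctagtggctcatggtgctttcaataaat
The Snhg12 copy, a B1 element of the Alu family, had 52 reads in all 10 libraries, the B4A copy 21 reads in 8 and the Meg3 copy 9 reads in 5. Of these, 51, 2 and 9 had no mRNA alignment and count as SINE-only, although they lie in exons of noncoding RNAs. Their alignments began at a median of base 0, 2 and 0. Snhg12 is a host gene of small nucleolar RNAs and Meg3 is an imprinted noncoding RNA. Reads at the Snhg12 copy had long tails, with a median of 197 nt over 47 reads with an accepted estimate.

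Matches to the search letters were more frequent in young B2 copies than in the other SINEs. Among 106 copies of B2_Mm1a, B2_Mm1t and B2_Mm2 that lie wholly in an annotated exon, on either strand 76.4% held TGGCNNAG, 82.1% GTTCNANNC and 88.7% AATAAA, against 13.5%, 6.09% and 14.7% of 32851 promoter windows of 187 bases, the median length of these copies. An A box in the first 30 bases followed by a B box on the same strand was found in 70 of the 106 copies and in 0.0761% of the promoter windows. The older B3 and B3A copies of the B2 family held the A box letters in 21.9% of 64 copies, B4 copies in 22.8% of 101, and B1 copies in 3.23% of 124. The B box letters were found in 23.4% of the B1 copies, above the 6.09% of promoter windows. B1 copies were also shorter than these windows, with a median of 115 bases. The same search letters were used for all families, so a box spelled otherwise was missed. The low shares outside young B2 therefore do not show that those families lack the boxes.

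Young B2 RNAs made up most of the SINE reads. B2_Mm1a had 5007 reads, B2_Mm2 3179 and B2_Mm1t 2800, together 10937 reads or 66.9% of all SINE reads. The whole B2 family, with B3 and B3A, held 76.1%, Alu (B1) 17.1%, B4 11.2%, MIR 3.23%, ID 1.06% and Deu 4 reads. These shares exceed 100% in sum because 7.60% of the reads aligned to elements of several families. The next elements were B3 (1128 reads), RSINE1 (733), ID_B1 (680), B3A (547), B1_Mus1 (374), PB1D10 (367) and B4A (364), where RSINE1, ID_B1 and B4A belong to the B4 family and B1_Mus1 and PB1D10 to Alu.

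The families also differed in how often a SINE read came with an mRNA. Of the B2_Mm1a reads 97.1% had no mRNA alignment, of B2_Mm1t 95.1% and of B2_Mm2 89.1%. For B3 this share was 52.0%, for Alu 48.6%, for B4 49.6%, for MIR 42.7% and for ID 37.9%. The order within the B2 family thus ran from the young elements down to B3 and B3A, which stood close to the other families.

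Where the alignments began on the element followed the same division. Of 11014 young B2 alignments, 88.3% began 6 to 30 nt inside the element and 10.3% at 0 to 5 nt. Across the 10 libraries the share with the inner start ranged from 86.3% to 89.5%. In contrast, 86.1% of Alu, 84.98% of B4, 85.3% of MIR and 96.1% of ID alignments began at 0 to 5 nt, as did 77.2% of B3 and 83.2% of B3A alignments. B2_Mm2 held both kinds, with 73.9% inner starts and 24.2% starts at 0 to 5 nt, against 95.4% and 3.41% for B2_Mm1a. For comparison, 15.9% of mRNA alignments began 6 to 30 nt inside the annotated transcript. The window of 6 to 30 nt was chosen after these starts were seen.

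**Figure D1:**
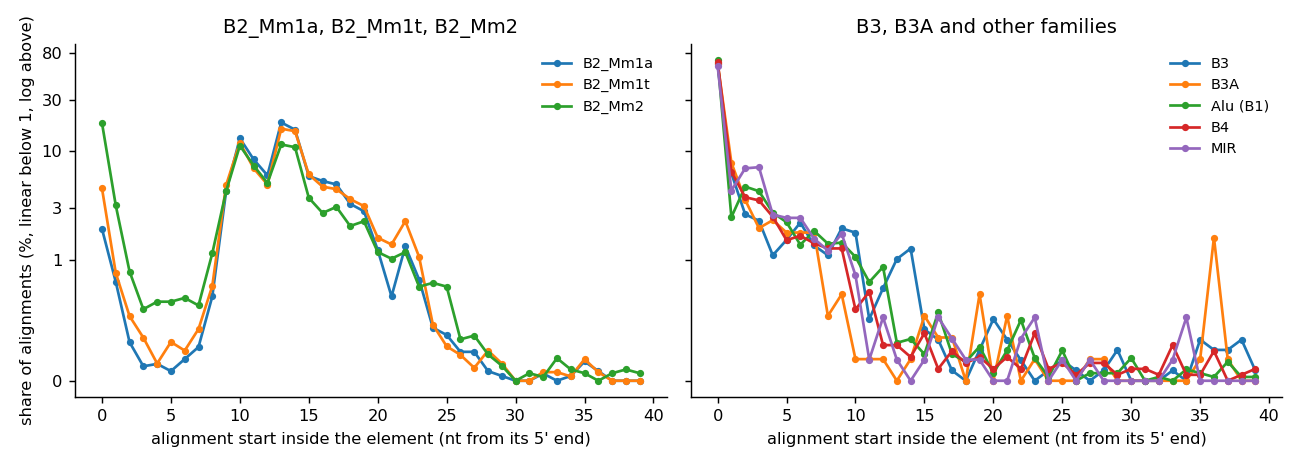
Alignment starts on SINE elements, as the share of all alignments of an element or family (vertical axis, %, linear below 1 and logarithmic above) at each distance from the 5′ end of the element (horizontal axis, nt, up to 39), pooled over 10 libraries. B2_Mm1a, B2_Mm1t and B2_Mm2 (left) peak at 10 to 14 nt and, for B2_Mm2, also at 0, while B3, B3A, Alu (B1), B4 and MIR (right) peak at 0.

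The 2 kinds of young B2 alignment differed in whether and where they met annotated transcripts. Those with the inner start had no mRNA alignment in 98.2% of cases (97.0% to 98.7% over libraries), whereas those starting at 0 to 5 nt had none in 61.6% (50.6% to 70.7%). Exons of noncoding transcripts held 1.81% of the first kind and 16.5% of the second. In the 70 exonic copies whose boxes could be placed, the A box began at a median of 13 nt. Of all 170 alignments there, 52.9% began within 3 nt of the first base of the A box. All of them had an inner start, a window that holds this position by its choice. Whether alignment starts are the 5′ ends of the RNAs was not tested. The inner start was found in 92.9% of 70 alignments to such copies on the minus strand of the genome and in 58.0% of 100 on the plus strand, and in 98.4% of 63 alignments to copies antisense to their host transcript against 57.0% of 107 to sense copies.

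Most SINE copies lay away from annotated exons. By the midpoint of the element and on either strand, introns held 50.1% of SINE alignments, positions outside genes 41.5%, noncoding exons 7.44% and exons of coding transcripts, untranslated regions included, 0.999%. With mapping quality of at least 10 these shares were 47.5%, 40.7%, 10.8% and 1.03%. Mapping quality, on the scale of the aligner where 0 means that another placement fits as well, had a median of 1 for young B2, 20 for Alu, 33 for MIR and 42 for B4, and 72.3% of young B2 alignments lay below 10. Positions of single young B2 copies are therefore uncertain. The share below 10 was 85.5% for B2_Mm1a, 79.0% for B2_Mm1t and 45.9% for B2_Mm2. Whether other placements of these reads carried another element name was not tested.

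Among copies outside exons with many reads were a B2_Mm1a copy at chr5:114707215-114707410 with 63 reads and a B2_Mm1t copy at chr6:30038747-30038939 with 60, both outside annotated genes and both with a median start at 14 nt. Other B2_Mm1a copies with 42 and 40 reads lay in introns of Triobp (chr15:78964233-78964425) and Cbwd1 (chr19:24943659-24943844), and their median starts were at 11 and 14 nt. Median mapping quality over these 4 copies was 24, 11.5, 11 and 1.

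In 3399 reads a SINE was joined to an annotated mRNA, spread over 1920 genes of which 1330 shared a single read. The 5 genes that shared the most were Mettl2, an RNA methyltransferase gene (61 of its 89 reads), Nkain1 (44 of 56), Glod4 (34 of 191), Vmn2r66, a vomeronasal receptor gene (23 of 63), and Btbd9 (21 of 36). The Mettl2 reads mostly hit an RSINE1 copy at chr11:105140990-105141114, past the annotated end of the gene at 105140394, and the Nkain1 reads a MIR3 copy at chr4:130531368-130531510, past its end at 130531602 on the minus strand. The Glod4 reads hit a B1_Mur3 copy within the gene (chr11:76221212-76221304), outside its exons. For Vmn2r66 and Btbd9 the most shared copies lay elsewhere, an RSINE1 at chr2:156389295-156389444 for a gene on chromosome 7 and the B4A copy shown above, outside the Btbd9 gene on chromosome 17. None of these 5 genes passed the test of reads between siLarp1 and siCtl described below (lowest adjusted p = 0.666 for Mettl2, over both time points, limma voom).

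Tail lengths were read from the current signal of each molecule, and an estimate was accepted only with the quality tag PASS. PASS was given to 55.6% of SINE alignments, against 82.5% for mRNA, 66.8% for LINE and 21.5% for LTR alignments. The families differed widely, with 71.5% for B2, 29.5% for MIR, 24.5% for B4, 18.9% for Alu and 14.9% for ID. The tag SUFFCLIP, set when a long stretch at the 3′ end of the read lies outside the alignment, was the main other tag and was given to 64.4% of Alu and 5.05% of young B2 alignments. Of the 3399 reads with both a SINE and an mRNA, 51.1% had no PASS on either alignment. Tail values of SINEs thus describe mostly B2, which gave 9103 of the 10337 SINE reads with a PASS tail.

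SINE-only reads had a broader spread of tails than mRNA reads. Their median over libraries ranged from 85.6 to 106 nt and that of mRNA reads without a repeat alignment from 97.1 to 104 nt. Yet the 10th percentile, pooled over libraries, was 28.8 nt for SINE-only reads and 46.5 nt for mRNA, and the 90th percentile was 235 and 178 nt. Both ends of the distribution were therefore heavier for SINEs.

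**Figure D2:**
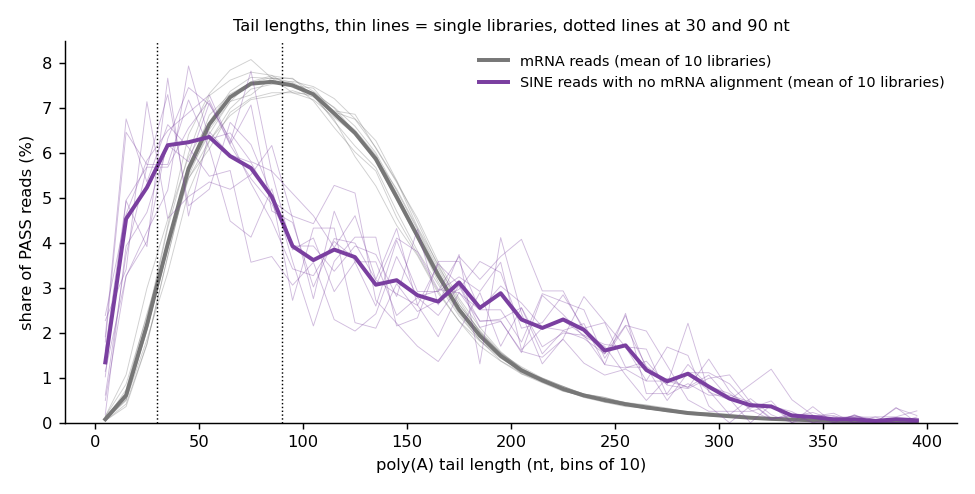
Distribution of poly(A) tail length (horizontal axis, nt, in bins of 10) as the share of PASS reads (vertical axis, %) for SINE-only reads (purple) and mRNA reads without repeat alignment (grey), thin lines for single libraries and thick lines for the mean of 10 libraries, with dotted lines at 30 and 90 nt. The mean SINE curve lies above the mean mRNA curve below 50 nt and from 170 nt on, and below it in between.

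Short tails, under 30 nt, were held by 8.45%, 8.01% and 10.0% of SINE-only reads in the siCtl libraries 19, 21 and 22 and by 8.80%, 9.88% and 12.3% in the siLarp1 libraries 19, 21 and 22 at 24 h. At 48 h they were 14.0% and 12.9% in siCtl libraries 24 and 25 and 14.0% and 12.8% in siLarp1 libraries 24 and 25. In the same 10 libraries mRNA reads had 2.15% to 4.21%, so no SINE value overlapped an mRNA value. The share was higher in SINE-only than in mRNA reads in 10 of 10 libraries, by 8.25 percentage points on average (SD 1.97, adjusted p = 0.00293, exact sign-flip permutation test, two-sided, 12 tests), where 0.00195 is the smallest raw p that 10 libraries allow.

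Long tails, over 150 nt, were also more frequent in SINE-only reads, with 26.4% to 37.8% of reads against 17.9% to 20.6% for mRNA. This difference was 12.7 percentage points (SD 3.18, 10 of 10 libraries, adjusted p = 0.00293, exact sign-flip permutation test). Tails of 30 to 90 nt were less frequent, by 3.26 points (SD 3.32, lower in SINEs in 9 of 10 libraries, adjusted p = 0.00703, same test). The medians, by contrast, differed by -1.75 nt (SINE minus mRNA, SD 5.91) and were higher in SINEs in 5 of 10 libraries (adjusted p = 0.357, same test). The direction of the median difference turned with the choice of reads, to 11.5 nt higher in SINEs for alignments of mapping quality 10 or more (10 of 10 libraries, adjusted p = 0.00293, same test) and 14.8 nt higher for reads with a barcode confidence of at least 0.9 (9 of 10, adjusted p = 0.00426, same test). Both of these passed the test, which the median over all PASS reads did not.

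Compared with reads of the other retroelement classes, again without mRNA alignment, SINE-only reads had more short tails than LINE reads (3.07% to 8.82% over libraries, 6.01 points fewer on average) and LTR reads (0.671% to 2.47%, 9.62 points fewer), each in 10 of 10 libraries (adjusted p = 0.00293, exact sign-flip permutation test). With mapping quality of at least 10 the difference from LINE shrank to 1.06 points (8 of 10 libraries, adjusted p = 0.213, same test), as LINE reads then had 5.17% to 15.7% short tails. The SINE median lay between the other classes, 13.8 nt above that of LINE reads (SD 9.72, higher in 9 of 10 libraries, adjusted p = 0.00703, same test) and differed from that of LTR reads by -27.1 nt (SD 4.45, lower in 10 of 10, adjusted p = 0.00293, same test). The share over 150 nt exceeded that of LINE reads by 14.8 points (10 of 10 libraries, adjusted p = 0.00293, same test) and differed from that of LTR reads by -2.03 points (adjusted p = 0.0874, same test), a direction that turned to 2.73 points higher in SINEs at a barcode confidence of at least 0.9 (adjusted p = 0.0137, same test).

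**Figure D3:**
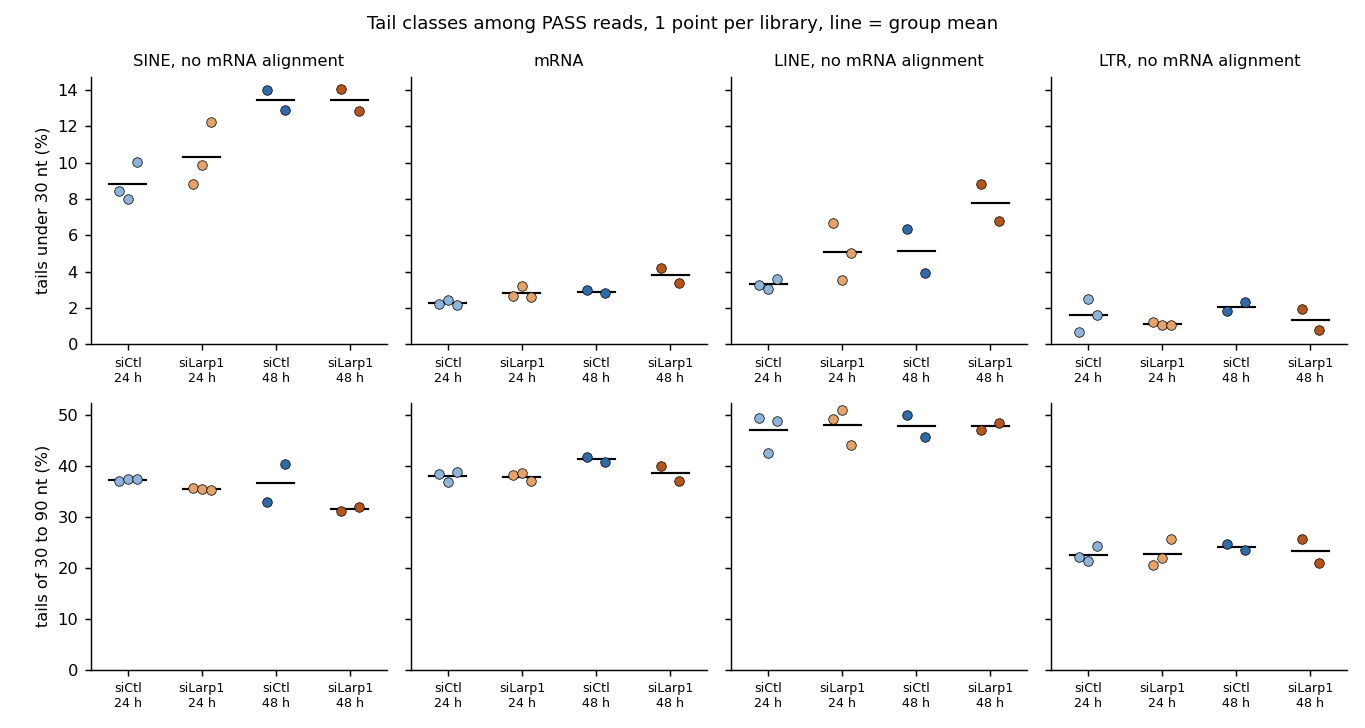
Share of PASS reads with tails under 30 nt (top row, %) and of 30 to 90 nt (bottom row, %) for SINE-only, mRNA, LINE and LTR reads, with 1 point per library and a line at the mean of each group. SINE-only reads sit at 8.01% to 14.0% in the top row, above every mRNA and LTR library, and in the bottom row their siLarp1 points lie below their siCtl points at 24 h and at 48 h, while in the LINE and LTR panels and for mRNA at 24 h the treatments overlap.

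Tails differed among SINEs as well. B2_Mm2 had a median tail of 115 nt as the mean of libraries (95.4 to 129 nt) and B2_Mm1a of 89.2 nt (74.6 to 99.1 nt), a difference of 25.4 nt (SD 7.25) found in 10 of 10 libraries (adjusted p = 0.0117, exact sign-flip permutation test over 12 comparisons within SINEs that were chosen after the data were seen). B2_Mm1t stood between them at 96.3 nt and did not differ from either beyond the test (adjusted p = 0.0609 against B2_Mm2 and 0.361 against B2_Mm1a, same test). Short tails were more frequent in B2 than in B4 reads (10.97% against 3.25%, 10 of 10 libraries, adjusted p = 0.0117, same test) and in Alu than in B4 reads (7.92% against 3.25%, 9 of 10, adjusted p = 0.0234, same test). The Alu and B4 values rest on few PASS reads, with as few as 33 and 21 in a library. MIR reads, too few for a value per library, had a pooled median of 121 nt over 169 PASS reads, and ID had 27 PASS reads.

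The young B2 reads with the inner start and no mRNA alignment had the same wide spread. Their median in the siCtl libraries was 96.9, 97.2 and 92.2 nt at 24 h and 99.7 and 78.1 nt at 48 h, and in the siLarp1 libraries 104, 95.4 and 97.3 nt and 108 and 96.8 nt. Library 25 of siCtl at 48 h lay lowest, and the groups overlapped at both time points. Pooled over libraries, their 10th and 90th percentiles were 28.3 and 236 nt. The A run that ends many of these copies is part of the element and could be counted into the tail, which was not tested.

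The knockdown itself was visible in the reads. In RPM, the reads of a gene scaled to equal library size, Larp1 had 72.4, 82.4 and 73.9 RPM in siCtl and 33.6, 36.3 and 20.5 in siLarp1 at 24 h, and 141 and 122 against 29.8 and 26.6 at 48 h. The groups did not overlap at either time, and the log2 fold change over both was -1.63 (SE 0.29, adjusted p = 0.00268, limma voom). The cells expressed the pluripotency genes Pou5f1, Sox2, Nanog, Lin28a, Utf1, Tdgf1, L1td1 and Dnmt3b in every library and Dppa5a at 0 to 2 reads per library, while endoderm markers summed to 0 to 5.12 RPM, with Afp at 0 reads. Neuron markers summed to 190 to 343 RPM, mostly Stmn2, and mesoderm markers to 59.0 to 385, mostly T at 48 h and with Col3a1 at 0 reads, whose part in the SINE values was not tested. Depth ranged from 141919 to 541959 reads per library.

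The share of SINE reads was compared between siLarp1 and siCtl next. SINE reads made up 0.635%, 0.579% and 0.618% of all reads in siCtl and 0.663%, 0.602% and 0.656% in siLarp1 at 24 h. At 48 h they made up 0.679% and 0.616% in siCtl and 0.727% and 0.700% in siLarp1. The means were 0.611% ± 0.0287 and 0.640% ± 0.0337 (SD, n = 3) and then 0.647% ± 0.0451 and 0.713% ± 0.0192 (SD, n = 2), and the groups overlapped at 24 h and not at 48 h, where siLarp1 was higher. Over both time points the share was 0.0478 percentage points higher in siLarp1 (raw p = 0.0667, adjusted p = 0.156, exact permutation test within time points, two-sided, 7 tests on read shares). The difference did not pass the test. Alone, 24 h cannot give a p below 0.1 nor 48 h below 0.333, and both together allow 0.0167.

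SINE-only reads behaved likewise, with 0.498%, 0.456% and 0.499% in siCtl and 0.508%, 0.481% and 0.534% in siLarp1 at 24 h, and 0.537% and 0.480% against 0.557% and 0.574% at 48 h. The 95% Wilson intervals, which cover counting error only, ran from 0.437% to 0.477% for the lowest library and from 0.538% to 0.614% for the highest. The difference over both time points was 0.0404 points (adjusted p = 0.156, exact permutation test). The reads of each library carry a further code, whose meaning the labels do not give and which is called run here. At 24 h no code was shared between siCtl and siLarp1, so run and treatment cannot be told apart there. The 3 siCtl runs gave 0.518% to 0.580%, 0.390% to 0.440% and 0.464% to 0.489% over their libraries, and the 3 siLarp1 runs 0.521% to 0.605%, 0.293% to 0.425% and 0.321% to 0.342%, so the order of the treatments at 24 h depended on which runs were compared. At 48 h all 4 libraries had reads in each of 2 runs, and the share differed between runs of the same library (0.431% to 0.537% in 1 run, 0.609% to 0.676% in the other). Within these runs the siLarp1 mean was 0.0749 and 0.0102 points higher.

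**Figure D4:**
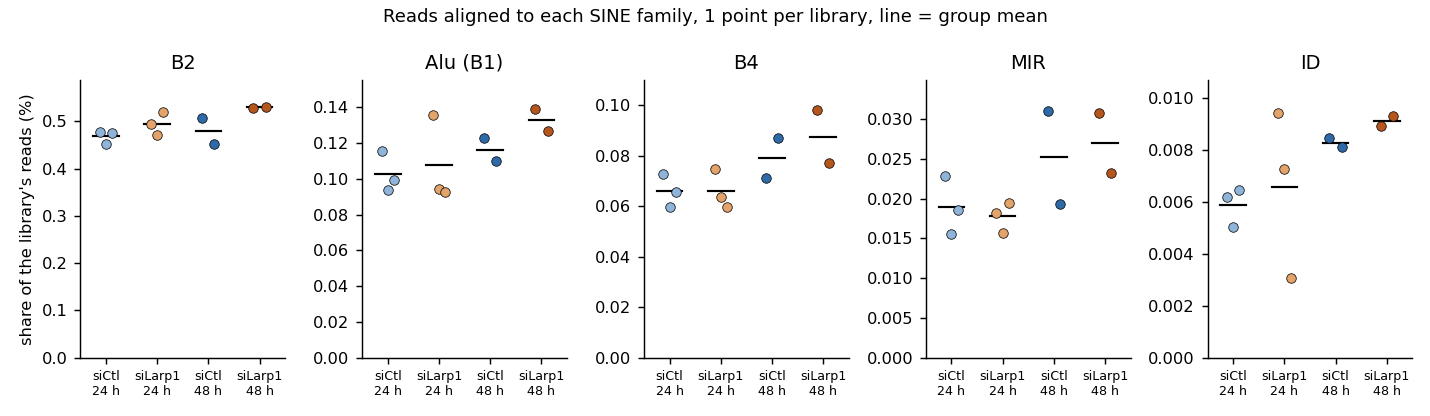
Share of each library's reads (vertical axis, %, starting at 0, scaled for each family) that aligned to the SINE families B2, Alu (B1), B4, MIR and ID, with 1 point per library and a line at the mean of each group. The siLarp1 points lie above the siCtl points at 48 h for B2, Alu and ID and overlap them in every family at 24 h.

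By family, B2 reads were 0.478%, 0.452% and 0.474% of all reads in siCtl and 0.495%, 0.470% and 0.519% in siLarp1 at 24 h, and 0.507% and 0.453% against 0.529% and 0.531% at 48 h. The difference over both was 0.0384 points (raw p = 0.05, adjusted p = 0.156, exact permutation test). Alu (B1) reads had means of 0.103% in siCtl and 0.108% in siLarp1 at 24 h and of 0.116% and 0.133% at 48 h (adjusted p = 0.467, exact permutation test). B4, MIR and ID showed differences of 0.00431, 0.000286 and 0.000759 points with adjusted p of 0.642, 0.917 and 0.642 (same exact test). The share of young B2 alignments with the inner start was 88.7% in siCtl and 88.4% in siLarp1 at 24 h and 88.0% and 86.6% at 48 h (adjusted p = 0.511, exact permutation test over 12 added measures).

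Single elements were tested together with all genes and other repeats by limma voom on reads per feature, scaled to all reads of a library. At 24 h, 0 of 29 SINE elements with at least 30 reads passed an adjusted p under 0.05, against 0.0179% of 5584 features tested, and at 48 h 0 of 26, against 0.0613% of 3265. With both time points in a single fit the count was 0 of 30, against 0.0895% of 6701 features. At an unadjusted p under 0.05 the counts were 1, 0 and 0, where 5.5%, 4.99% and 6.25% of all features lay. The 1 element was PB1D11, a proto-B1 named here after its value was seen (log2 fold change 0.95, SE 0.38, adjusted p = 0.825, limma voom, 24 h). The estimates were positive for 18 of 29, 22 of 26 and 24 of 30 elements, with medians of 0.05, 0.18 and 0.08 on the log2 scale, where the medians of all features were 0.01, 0.04 and 0.03. The elements share reads and libraries and are no independent repeats of each other.

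Among the 10 most-read elements, B2_Mm1a had log2 fold changes of 0.09 (SE 0.08) at 24 h and 0.14 (SE 0.12) at 48 h, B2_Mm2 of 0.05 (SE 0.10) and 0.24 (SE 0.14), and B2_Mm1t of 0.05 (SE 0.10) and 0.12 (SE 0.15). B3A had the highest value at 48 h, 0.48 (SE 0.25, adjusted p = 0.915, limma voom), and 0.20 (SE 0.19) at 24 h. RSINE1, B1_Mus1 and PB1D10 had estimates of opposite sign at the 2 time points, and B4A was negative at both, at -0.23 (SE 0.24) and -0.37 (SE 0.28). B2_Mm1a, the best measured, had 695, 866 and 1014 reads in siCtl and 296, 324 and 414 in siLarp1 at 24 h, and 269 and 406 against 416 and 307 at 48 h.

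**Figure D5:**
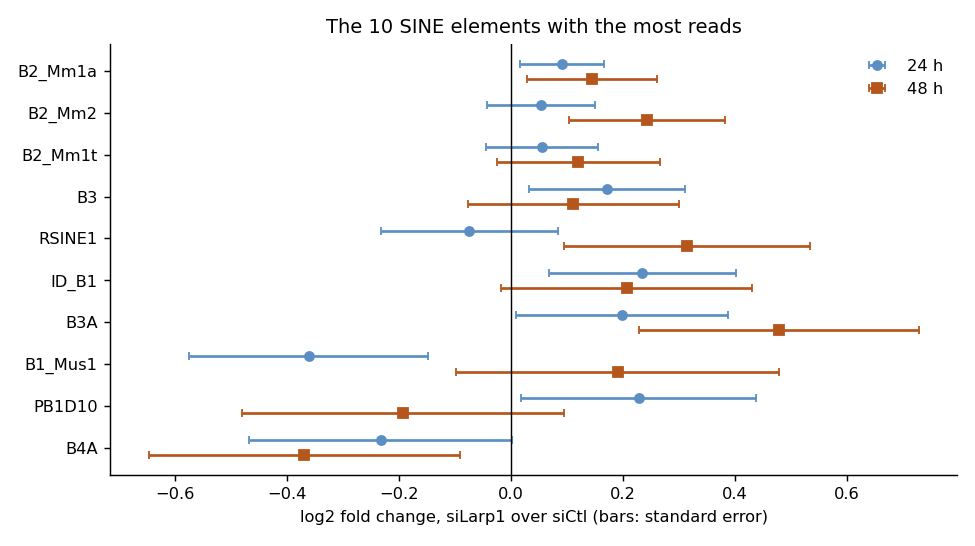
Log2 fold change of siLarp1 over siCtl (horizontal axis) with its standard error for the 10 SINE elements with the most reads (vertical axis), at 24 h (blue circles) and 48 h (orange squares). The 3 young B2 elements at the top lie between 0.05 and 0.24 at both times, and the error bars widen towards the less-read elements below.

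Tails of SINE reads were then compared between the treatments. The median tail of SINE-only reads was 103, 98.9 and 95.7 nt in siCtl and 104, 101 and 98.6 nt in siLarp1 at 24 h, and 99.0 and 85.6 against 106 and 104 nt at 48 h. The groups overlapped at 24 h, and at 48 h both siLarp1 libraries were higher, with siCtl library 25 lowest of all 10. Over both time points the median was 7.29 nt longer in siLarp1 (adjusted p = 0.208, exact permutation test, 10 tests on tails), and without siCtl library 25 at 48 h this value was 3.94 nt. Within the 2 runs at 48 h the difference was 11.1 and 16.2 nt. At 24 h the treatments shared no run. The 3 siCtl runs there had medians of 102 to 115, 89.2 to 99.0 and 89.3 to 97.4 nt over their libraries. The 3 siLarp1 runs had 98.9 to 107, 73.4 to 122 and 95.1 to 104 nt, the last 2 runs on at most 82 PASS reads per library. The order of the treatments at 24 h thus depended on which runs were compared.

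The share of 30 to 90 nt tails is the range the study followed in mRNAs of the translation machinery. In SINE-only reads it was 37.0%, 37.3% and 37.4% in siCtl and 35.6%, 35.4% and 35.3% in siLarp1 at 24 h, and 32.9% and 40.3% against 31.1% and 31.8% at 48 h. No siLarp1 library reached the siCtl libraries of its time point. At 24 h the treatments shared no run, so this separation cannot be told apart from a difference between runs. The difference over both was -3.45 points, which gave the smallest p the design allows (0.0167) and an adjusted p of 0.0833 (exact permutation test), so it did not pass after adjustment. Without siCtl library 25 at 48 h the difference was -1.59 points and without siCtl library 24 it was -5.32. With mapping quality of at least 10 it was -1.004 points over both times (raw p = 0.3, exact permutation test) and turned to 1.29 points higher in siLarp1 at 24 h, and reads whose barcode confidence reached 0.9 gave -2.29 points (raw p = 0.45, same test). In mRNA reads the same share differed by -1.45 points (raw p = 0.183, exact permutation test), and the SINE-only value minus that of mRNA in the same library by -2.00 points (raw p = 0.367, same test), with overlap at 48 h.

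The short-tail share of SINE-only reads, given above for each library, was 1.48 points higher in siLarp1 at 24 h with overlapping groups, and -0.00651 points apart at 48 h (adjusted p = 0.352 over both, exact permutation test). In mRNA reads the short-tail share was higher in siLarp1 without overlap at both times, by 0.736 points (raw p = 0.0167, adjusted p = 0.2, exact permutation test over 12 added measures). It did not pass after adjustment either. For this share too, run and treatment cannot be told apart at 24 h. The SINE-only value minus that of mRNA was higher by 0.904 points at 24 h and lower by the like amount, -0.904, at 48 h. By family, the median tail differed between siLarp1 and siCtl by 6.69 nt for B2, -1.24 nt for Alu and -14.0 nt for B4, none past the test (adjusted p = 0.333, 0.9 and 0.208, exact permutation test).

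Whether the knockdown acted differently at 48 h than at 24 h was tested for 4 measures. The effect on the SINE read share was 0.0364 points larger at 48 h, on the SINE-only share 0.0345 points larger, on the median tail of all SINE reads 9.35 nt larger and on their short-tail share different by -1.04 points. Each had an adjusted p of 0.583 (exact permutation test of the difference), so none was shown to differ between the times.

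Lists of genes linked to the making, binding or silencing of SINE RNAs were counted in the same fits. The binding list also holds Srp19, Srp54a, Srp68 and Srp72, other proteins of the signal recognition particle, whose binding to SINE RNAs was not tested. Of 26 genes of RNA polymerase III and its factors, 21 were tested at 24 h and 11 at 48 h. Of 9 genes in the binding list and 15 in the silencing list, 9 and 15 were tested at 24 h and 8 and 8 at 48 h. None passed an adjusted p under 0.05 in either direction at 24 h, at 48 h or over both times. Of all features tested, 0.0179%, 0.0613% and 0.0895% passed. With shares this low, the empty counts say little about these genes. The median log2 fold change of the polymerase III list was 0.18 at 24 h and -0.01 at 48 h, that of the binding list 0.06 and 0.15, and that of the silencing list 0.07 and 0.08.

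Ssb, the La protein that binds the 3′ ends of polymerase III transcripts, had 188, 222 and 192 RPM in siCtl and 182, 206 and 200 in siLarp1 at 24 h (log2 fold change -0.02, SE 0.18). Srp9 and Srp14, which form the pair that binds B1 and 7SL RNA, had log2 fold changes of 0.07 (SE 0.19) and 0.06 (SE 0.19) at 24 h. The largest value among the genes named was that of Maf1, a repressor of RNA polymerase III, with 42.9, 50.4 and 49.9 RPM in siCtl and 87.4, 90.8 and 61.5 in siLarp1 at 24 h, a log2 fold change of 0.71 (SE 0.28, unadjusted p = 0.0159, adjusted p = 0.825, limma voom). At 48 h it was -0.02 (SE 0.50). Polr3e, a polymerase III subunit, had -0.25 (SE 0.54) at 24 h and too few reads at 48 h, and Trim28, a corepressor that silences retroelements, -0.05 (SE 0.13) and 0.26 (SE 0.18).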

How the data were processed

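Poly(A) RNA of P19 cells was sequenced directly in 10 libraries. Per the paper's methods, the authors aligned reads with minimap2 2.20 to mm10 with GENCODE vM17 genes, estimated tails with Nanopolish and assigned libraries with Deeplexicon. The deposited table has 1 line per alignment, with tail length in nt, a mapping quality score, alignment start and end on the reference sequence, and the barcode confidence as a fraction from 0 to 1. How repeat copies entered the reference is not given in the sources used here. Libraries were mapped to treatment and time only, so labelled replicate numbers were not used. Per the paper's methods, the barcoded libraries of a group are biological replicates, which were multiplexed for sequencing. The methods do not describe the run codes used here.

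Reads were counted once per library (pandas 2.3.3). A value per library was tested by exact permutation of the treatment within time points, differences between classes of reads by exact sign-flips over 10 libraries, and reads per feature by limma 3.58.1 voom (at least 30 reads), with Benjamini-Hochberg adjustment. All were tested on simulated data. The mRNA reads compared exclude reads with a repeat alignment, mitochondrial genes and pseudogenes. Named elements were the 10 with the most reads and any with an adjusted p under 0.05 (none); the 5 host genes were those sharing the most reads. Alternatives were PASS reads only, mapping quality of at least 10, barcode confidence of at least 0.9, other denominators, tail cutoffs and scalings, leaving out each library, and blocking on library number. The members and lists were chosen with earlier results of these data known. Same-numbered libraries deviated together weakly (r = 0.0355, 0.108 and 0.159 at 24 h and 0.0318 at 48 h over 3172 features), so numbers were not taken as pairs. The sequence and values of 1 SINE copy are not reported here.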

Additional observations from a re-analysis of the deposited data

How the results depend on the processing

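The read shares and tails compared between siLarp1 and siCtl passed no adjusted test under any alternative run, and of the 150 values under alternatives other than leaving out a library, 134 kept direction and side of the threshold. With PASS reads only, the B4 and MIR share differences turned to -0.00303 and -0.000234 points, and ID_B1 to -0.36 (log2). With mapping quality of at least 10, the MIR share turned to -0.000825 points, the median tail of all SINE reads to -3.78 nt, the SINE-only minus mRNA median to -0.853 nt and the time-point difference of the short-tail share to 0.0910 points; between classes, SINE minus mRNA medians became 11.5 nt, the LTR difference over 150 nt 2.43 points, and the LINE short-tail difference fell to 1.06 points, no longer past the test. At a barcode confidence of at least 0.9, short-tail differences became -0.560 (SINE) and -0.802 (SINE-only) points, and the class differences 14.8 nt (mRNA median) and 2.73 points (LTR over 150 nt), the last 2 chosen after seeing the data. With all quality tags, the Alu and B4 median tail differences became 0.168 and 4.47 nt and that from mRNA 3.11 nt. The cause of these turns was not tested. Leaving out 1 library at a time gave -10.4 to 7.90 nt for the Alu median, -0.000995 to 0.00962 points for the B4 share, -0.00262 to 0.00320 for the MIR share and -2.62 to -1.49 for LTR over 150 nt. On the log2 scale PB1D10 ranged from -0.035 (without siLarp1 library 19 at 24 h) to 0.20 and RSINE1 from -0.021 (without siCtl library 24 at 48 h) to 0.12. Within 1 of the 48 h runs, chosen after seeing the data, the short-tail difference was 2.97 points, and within the other -1.52.

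With the library number as a replicate block, the SINE read share difference stayed 0.0478 points with p = 0.0625 (exact permutation test), the smallest the block allows, and the block changed no call. Depth limits the rarer families most: ID had 27 PASS reads and Deu none.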
